A study of Mus musculus with 34 samples.

Results

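Platelet-derived growth factor (PDGF) signalling and the contractile genes of stromal cells were followed in the kidneys of 34 C57BL6 mice harvested on postnatal day 28. The set was a fixed list of 10 genes among the 23509 in the count tables, namely the 4 ligand genes *Pdgfa*, *Pdgfb*, *Pdgfc* and *Pdgfd*, the 2 receptor genes *Pdgfra* and *Pdgfrb*, and the 4 contractile genes *Acta2*, *Tagln*, *Cnn1* and *Myh11*. All 10 passed the filter on low counts. The mice formed 3 groups. *Pkd2*-KO mice received subcutaneous PBS (n = 11) or the anti-miR-17 oligonucleotide RGLS4326 at 20 mg per kg (n = 11) on days 10, 11, 12 and 19 after birth, and untreated non-transgenic mice (UNT, n = 12) were the controls. The labels spell the genotype Pdk2KO. In this model a Cre recombinase active in kidney tubules deletes floxed *Pkd2*, whereas the RNA came from the whole kidney, so stromal cells were sampled without being the target of the deletion. Genotype and injection cannot be told apart in any comparison with UNT mice, which carried neither the deletion nor an injection. The study's text gives fewer PBS-treated kidneys for RNA sequencing than the labels do, and all labelled libraries were used here.

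PDGF ligands are dimeric growth factors that signal through the receptor tyrosine kinases PDGFRα and PDGFRβ, which in the kidney are carried mainly by fibroblasts, pericytes, mesangial cells and vascular smooth muscle cells. PDGF-A and PDGF-B are processed inside the cell, whereas PDGF-C and PDGF-D are secreted in a latent form and cleaved outside it. Activated stromal cells that take on contractile proteins are called myofibroblasts and are a source of extracellular matrix in fibrotic kidneys. *Acta2* (smooth muscle α-actin), *Tagln* (transgelin, or SM22α) and *Cnn1* (calponin 1) are made by myofibroblasts as well as smooth muscle cells, and *Myh11* (smooth muscle myosin heavy chain) is the marker most restricted to smooth muscle.

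The drug RGLS4326 is an oligonucleotide directed at the seed of miR-17, the bases by which this microRNA pairs with its target mRNAs. The microRNA is shown because it was used to search the 10 mRNAs for matches. The RefSeq mature form lies at chr14:115043684-115043706 on the plus strand of GRCm38.p6, and its seed, bases 2 to 8, is in capitals.
miR-17-5p: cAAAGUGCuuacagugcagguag
The 6 mouse microRNAs miR-17-5p, miR-20a-5p, miR-20b-5p, miR-93-5p, miR-106a-5p and miR-106b-5p hold the same seed in RefSeq. For every gene the longest 3′UTR in GENCODE M21 (GRCm38) was searched on the transcribed strand for GCACTTT, the reverse complement of the seed, and for CACTTTA, which overlaps it by all but 1 base. Of the 10 genes, 1 held a match, against 21.2% of the 14186 tested genes with an annotated 3′UTR (median length 1150 bases). It was GCACTTT at position 2885 of the 3115 bases of the *Pdgfra* 3′UTR, within chr5:75197975-75198002 on the plus strand, and is given here with the match in capitals.
Pdgfra window: gttaactgttGCACTTTtgaatgtccaa

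The promoter of *Acta2* is shown because *Acta2* varied closely with *Tagln* and *Cnn1* among mice of the same group, and because the CArG box, the binding motif of serum response factor (SRF), is a known element of contractile genes. The RefSeq sequence covers 250 bases before and 50 bases after the start that the entry uses, at chr19:34255324-34255623 on the minus strand of GRCm38.p6. Capitals mark the places that differ from the CArG box, CC followed by 6 bases of A or T and then GG, by at most 1 letter. The pattern reads the same on both strands.
Acta2 promoter: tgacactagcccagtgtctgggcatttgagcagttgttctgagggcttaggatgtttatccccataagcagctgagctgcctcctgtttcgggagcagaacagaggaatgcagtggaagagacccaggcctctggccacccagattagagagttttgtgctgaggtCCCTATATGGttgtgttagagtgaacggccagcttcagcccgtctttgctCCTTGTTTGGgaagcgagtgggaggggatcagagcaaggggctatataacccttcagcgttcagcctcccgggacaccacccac
Both places differed from the motif by 1 letter and began 84 and 34 bases before the start of the entry. In GENCODE M21 *Acta2* reaches chr19:34255590, so both places lie within the gene as annotated there. Promoter entries were at hand for 6 of the 10 genes (7 sequences). An exact CArG box was found only in the *Pdgfc* promoter, 17 bases before the start, against 1.63% of all 32851 promoters of the same length. With 1 letter off allowed, the promoters of *Acta2*, *Pdgfc* and *Pdgfd* held a match and those of *Pdgfa*, *Pdgfra* and *Cnn1* did not, against 21.1% of all promoters.

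Levels are given in CPM, the read count scaled to library size with TMM factors. A gene was called when its adjusted p, from edgeR's quasi-likelihood test with Benjamini-Hochberg adjustment over all tested genes, was under 0.05, and SE is the standard error of the log2 fold change. Each library held between 17603122 and 54981992 reads in genes, and the lowest count of any of the 10 genes in a library was 82 (*Cnn1*). *Pkd2* was at 220 to 338 CPM in UNT, 98.0 to 215 CPM in PBS and 170 to 237 CPM in RGLS4326 kidneys, with a log2 fold change between PBS and UNT of -0.78 (SE 0.09, adjusted p = 1.4e-09). Some libraries held transcripts of the adrenal cortex. The summed level of 4 adrenal cortex markers (*Cyp11a1*, *Cyp11b1*, *Star*, *Hsd3b1*) was 2.41 to 4.17 CPM in UNT, where *Cyp11b1* was at 0 in every library, 2.54 to 1152 CPM in PBS and 1.17 to 37.9 CPM in RGLS4326 kidneys. It exceeded 10 CPM in 5 libraries, PBS 1, PBS 2, PBS 11, RGLS4326 2 and RGLS4326 10. Results for the 10 genes and their ratios are also given without these 5 where a call or a direction changed. Calls for the gene lists are given over all 34 libraries only. Library numbering restarted in the names of the deposited tables, which gave 3 numbering sets of 11, 11 and 12 libraries, each holding all groups.

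The first comparison, of PBS-treated *Pkd2*-KO with UNT kidneys, addressed how these genes differ in cystic disease. Of the 10 genes, 8 were higher, 1 (*Myh11*) was lower and 1 (*Pdgfc*) was not called. Among all 15644 tested genes, 43.1% were higher and 39.0% were lower, so calls were common in this comparison. The median log2 fold change was 1.0 over the 10 genes and 0.04 over all tested genes. In 6 of the 10 genes, *Pdgfa*, *Pdgfb*, *Pdgfrb*, *Acta2*, *Tagln* and *Cnn1*, every PBS kidney lay above every UNT kidney, and 42.5% of all tested genes did not overlap between these groups in either direction. Without the 5 libraries with adrenal transcripts, 9 of the 10 genes were called, in the same directions, beside 41.3% of all genes tested in that fit higher and 37.6% lower. In whole kidneys, fewer cells of a type and less RNA per cell cannot be told apart.

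To see how the treatment changed them, RGLS4326-treated kidneys were compared with PBS-treated kidneys. *Pdgfra* was higher, *Pdgfa* and *Pdgfb* were lower, and the other 7 genes were not called. Among all tested genes 15.3% were higher and 18.5% were lower. The median log2 fold change was 0.02 over the 10 genes and 0.00 over all tested genes, and the groups overlapped in all 10 genes, as they did in all but 0.0639% of tested genes. Without the 5 libraries with adrenal transcripts only *Pdgfra* was called, and the shares of all tested genes were also smaller, at 9.15% higher and 11.6% lower. Once a covariate for reads assigned to no gene was added, 0 of the 10 genes were called by edgeR, 3 of them having an unadjusted p under 0.05, and among all tested genes 0.358% were higher and 0.211% lower in that fit.

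RGLS4326-treated kidneys also differed from UNT kidneys, with 8 genes higher, 0 lower and *Pdgfc* and *Myh11* not called. Of all tested genes 40.8% were higher and 36.9% were lower in this comparison. The 8 higher genes were those in which every RGLS4326 kidney lay above every UNT kidney, while 36.7% of tested genes did not overlap. Log2 fold changes were 2.45 for *Tagln*, 2.18 for *Acta2*, 1.45 for *Pdgfb*, 1.16 for *Pdgfrb*, 1.13 for *Cnn1*, 1.07 for *Pdgfd*, 0.84 for *Pdgfra* and 0.62 for *Pdgfa*. For *Myh11* it was -0.18 (95% interval -0.42 to 0.07, adjusted p = 0.185), and it was called lower in a fit of these 2 groups only (-0.21, adjusted p = 0.0438) and in set 2 alone (-0.37, adjusted p = 0.00646). PBS vs UNT, RGLS4326 vs PBS and RGLS4326 vs UNT share their groups pairwise and are not independent of each other.

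**Figure D1:**
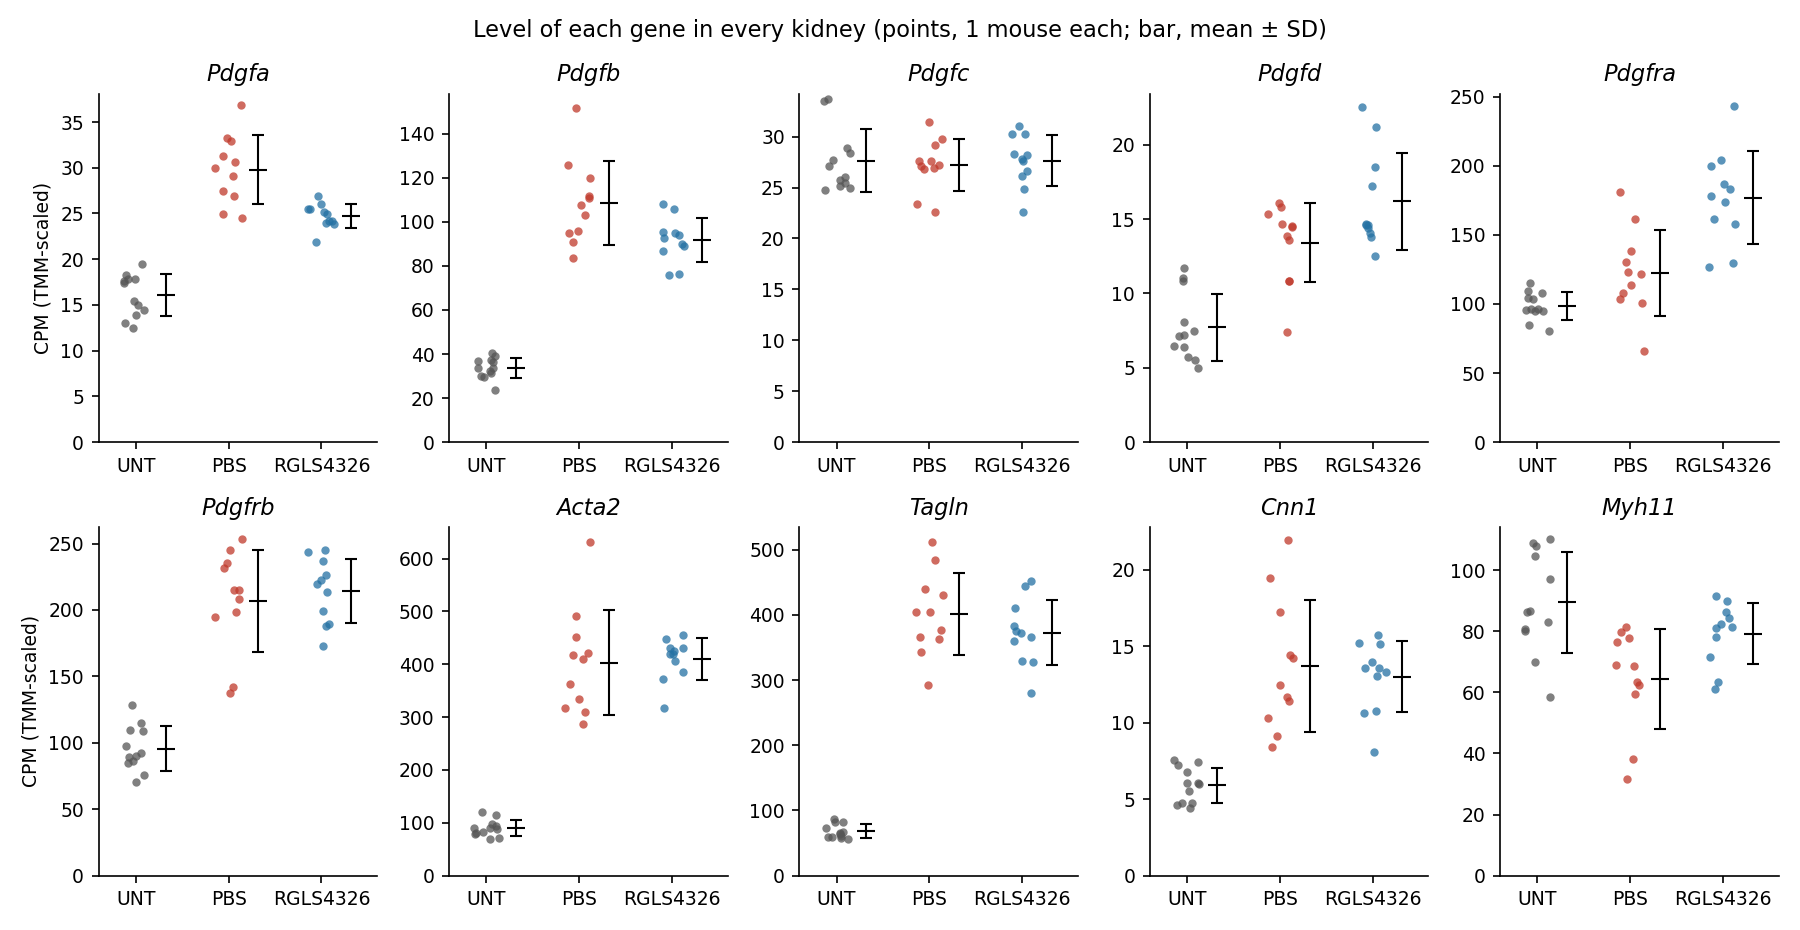
Level of each of the 10 genes (y axis, CPM scaled by TMM factors, from 0) in every kidney of the UNT (n = 12), PBS (n = 11) and RGLS4326 (n = 11) groups. Points are mice and bars are the mean ± SD; *Tagln* was at 55.9 to 86.4 CPM in UNT and 293 to 512 CPM in PBS kidneys, while *Pdgfc* covered nearly the same range in all groups.

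Among the ligands, *Pdgfb* had the largest fold change between PBS and UNT kidneys. PDGF-B, made largely by endothelial cells, binds both receptors and is best known for recruiting pericytes and mesangial cells through PDGFRβ. *Pdgfb* was lowest at 23.6, median 33.6 and highest at 40.5 CPM in UNT kidneys, and at 83.4, 107 and 152 CPM in PBS kidneys. In RGLS4326 kidneys the corresponding values were 76.1, 92.7 and 108 CPM. Both *Pkd2*-KO groups thus lay wholly above UNT, and the highest value of all was that of PBS 4. The log2 fold change was 1.69 (SE 0.09, adjusted p = 2.91e-19) for PBS vs UNT and -0.24 (SE 0.09, adjusted p = 0.0293) for RGLS4326 vs PBS. All 11 RGLS4326 kidneys lay below the mean of the PBS kidneys. This second call was lost when PBS 2, PBS 4, PBS 9, RGLS4326 1 or RGLS4326 6 was left out, with adjusted p up to 0.0771, and without the 5 libraries with adrenal transcripts, where it was -0.20 (adjusted p = 0.143).

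*Pdgfa* encodes PDGF-A, a ligand of PDGFRα. It was at 12.5, 16.4 and 19.4 CPM (lowest, median and highest) in UNT, at 24.5, 30.0 and 36.9 CPM in PBS and at 21.9, 25.0 and 26.9 CPM in RGLS4326 kidneys. The RGLS4326 kidneys varied least, with a coefficient of variation of 5.47% against 12.6% in PBS kidneys, and 5 of the 11 lay below every PBS kidney. *Pdgfa* rose by 0.89 on the log2 scale (SE 0.07, adjusted p = 8.85e-14) in PBS vs UNT and was lower by -0.27 (SE 0.07, adjusted p = 0.00821) in RGLS4326 vs PBS, where all 11 RGLS4326 kidneys were below the PBS mean. Without the 5 libraries with adrenal transcripts the latter was -0.21 and not called (adjusted p = 0.0748). Exons of *Pdgfa* overlap those of 6330403L08Rik on the opposite strand over 813 of 2942 bases, and the strand setting of the counting was not given in the sources used here, so its counts are uncertain.

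*Pdgfd* encodes PDGF-D, a ligand of PDGFRβ, and had the lowest level of the ligands per length of exon in each group. It was at 4.97, 7.16 and 11.7 CPM in UNT kidneys, 7.39, 14.5 and 16.1 CPM in PBS kidneys and 12.5, 14.6 and 22.6 CPM in RGLS4326 kidneys. UNT and PBS overlapped, since UNT 10, UNT 11 and UNT 12, all of set 3, were at 10.9 to 11.7 CPM and PBS 8, PBS 9 and PBS 10, also of set 3, were at 7.39 to 10.8 CPM. The other 8 PBS kidneys lay above every UNT kidney. The log2 fold change was 0.80 (SE 0.14, adjusted p = 2.52e-06) in PBS vs UNT. Within sets 1, 2 and 3 it was 1.38, 0.95 and 0.15, and in set 3 alone it was not called (adjusted p = 0.649). The interaction of set and group was not called for *Pdgfd* either (adjusted p = 0.179). In RGLS4326 vs PBS the value was 0.27 (95% interval -0.01 to 0.56, adjusted p = 0.12), with 10 of 11 RGLS4326 kidneys above the PBS mean.

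*Pdgfc* stood apart from the other ligands. PDGF-C is a latent ligand of PDGFRα. Its level was 24.8, 26.6 and 33.7 CPM in UNT, 22.6, 27.2 and 31.4 CPM in PBS and 22.6, 27.8 and 31.0 CPM in RGLS4326 kidneys, so the 3 groups covered nearly the same range. The log2 fold change was -0.02 in PBS vs UNT (95% interval -0.15 to 0.11, adjusted p = 0.766) and 0.02 in RGLS4326 vs PBS (95% interval -0.11 to 0.15, adjusted p = 0.817). Exons of *Pdgfc* overlap those of Gm16000 over 147 of 3521 bases, so its counts are uncertain to that extent. Per kilobase of exon, *Pdgfb* made up 41.1% ± 3.97 of the summed ligand level in UNT, 61.4% ± 2.82 in PBS and 58.3% ± 2.67 in RGLS4326 kidneys (SD, n = 12, 11 and 11). The share of *Pdgfc* was 29.4% ± 3.11 in UNT, 13.6% ± 1.87 in PBS and 15.3% ± 1.63 in RGLS4326 kidneys. The summed ligand level itself was 26.8 ± 1.92 CPM per kb in UNT, 57.6 ± 7.91 in PBS and 51.4 ± 4.06 in RGLS4326 kidneys.

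The receptors responded differently to disease and to treatment. *Pdgfrb*, the receptor of pericytes and mesangial cells, was at 70.4, 91.0 and 128 CPM in UNT, 137, 215 and 253 CPM in PBS and 173, 220 and 245 CPM in RGLS4326 kidneys. All *Pkd2*-KO kidneys lay above all UNT kidneys, and PBS 9 and PBS 10, at 137 and 142 CPM, were the lowest of them. The log2 fold change was 1.11 (SE 0.10, adjusted p = 9.1e-13) in PBS vs UNT and 0.05 (95% interval -0.15 to 0.25, adjusted p = 0.699) in RGLS4326 vs PBS.

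*Pdgfra*, the receptor of interstitial fibroblasts, was at 80.4, 96.2 and 115 CPM in UNT, 66.0, 122 and 181 CPM in PBS and 126, 178 and 243 CPM in RGLS4326 kidneys. PBS 9 was again the lowest PBS kidney and lay below all UNT kidneys, whereas every RGLS4326 kidney lay above them. *Pdgfra* rose by 0.31 on the log2 scale (SE 0.11, adjusted p = 0.0108) in PBS vs UNT. It rose by 0.53 (SE 0.11, adjusted p = 0.00265) in RGLS4326 vs PBS, with all 11 RGLS4326 kidneys above the PBS mean and 5 above every PBS kidney. *Pdgfra* is the gene with the seed match, whose part in these differences was not tested. It was the only one of the 10 genes called higher in both of these comparisons. The disease difference was not called in set 1 alone (0.30, adjusted p = 0.0581) or in set 3 alone (0.028, adjusted p = 0.913). In the fit without the 5 libraries with adrenal transcripts the treatment difference was 0.48 (adjusted p = 0.0219), and with a covariate for reads assigned to no gene it was 0.47 (adjusted p = 0.0608), no longer called. The share of such reads was 4.94% to 12.0% in RGLS4326, 5.18% to 9.0% in PBS and 9.84% to 11.3% in UNT libraries, and its part in the result was not tested further. Exons of *Pdgfra* overlap other annotated genes over 652 of 9516 bases.

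The balance between the receptors was compared within each kidney, which removes differences of scaling between libraries. UNT kidneys had a log2 ratio of *Pdgfra* to *Pdgfrb* of 0.06 ± 0.28 (SD, n = 12), PBS kidneys of -0.77 ± 0.35 (n = 11) and RGLS4326 kidneys of -0.29 ± 0.21 (n = 11). The mean ratio in PBS kidneys lay below that of UNT kidneys, with a difference of -0.83 (two-sided permutation test, p = 8e-05, adjusted over 15 ratio tests p = 0.00015) and that of RGLS4326 kidneys lay above PBS by 0.48 (permutation p = 0.00134, adjusted p = 0.00201), in 11 of 11 kidneys against the PBS mean. Between RGLS4326 and UNT kidneys the difference was -0.35 (permutation p = 0.00334, adjusted p = 0.00455). Within sets 1, 2 and 3 the treatment difference was 0.65, 0.36 and 0.46, and without the 5 libraries with adrenal transcripts it was 0.41 (permutation test, adjusted p = 0.028). The log2 ratio of *Pdgfb* to *Pdgfrb* differed by 0.58 between PBS and UNT kidneys (permutation test, adjusted p = 4.29e-05) and by -0.30 between RGLS4326 and PBS kidneys (permutation test, adjusted p = 0.00669).

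**Figure D2:**
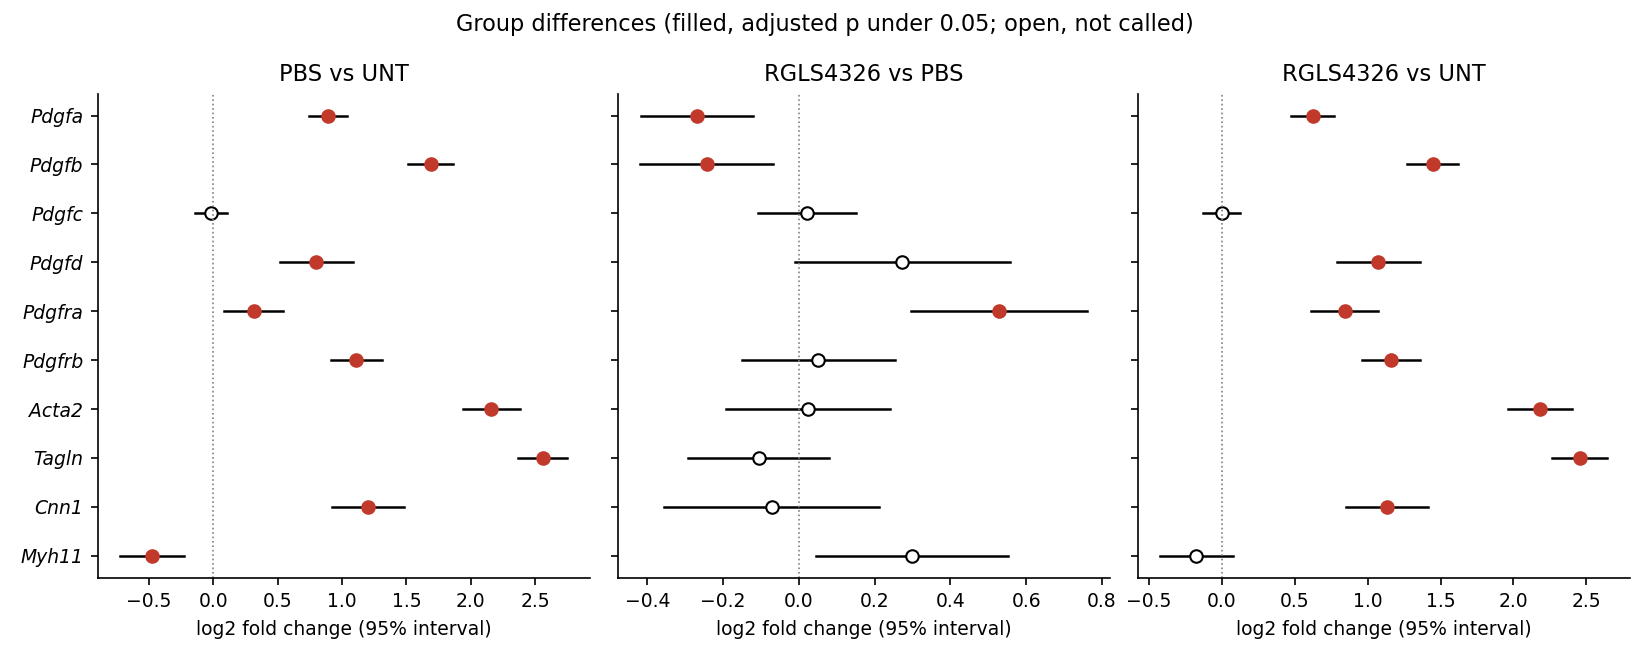
Log2 fold change (x axis) of each of the 10 genes with its 95% interval, for PBS vs UNT, RGLS4326 vs PBS and RGLS4326 vs UNT. Filled points passed an adjusted p of 0.05 in the edgeR test and open points did not; *Tagln* had the largest value among the 10 (2.56 in PBS vs UNT), and only *Pdgfa*, *Pdgfb* and *Pdgfra* are filled for RGLS4326 vs PBS.

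The contractile genes divided in disease. *Tagln*, an actin-binding protein, had the largest fold change of the 10 genes, and *Acta2* the next, whereas *Myh11* was lower. *Tagln* was at 55.9, 65.2 and 86.4 CPM in UNT, 293, 404 and 512 CPM in PBS and 280, 373 and 452 CPM in RGLS4326 kidneys. *Acta2* was at 70.3, 89.5 and 120 CPM in UNT, 286, 410 and 632 CPM in PBS and 317, 420 and 455 CPM in RGLS4326 kidneys. For both genes the lowest *Pkd2*-KO kidney was more than 2-fold above the highest UNT kidney. The log2 fold change in PBS vs UNT was 2.56 (SE 0.09, adjusted p = 2.99e-23) for *Tagln* and 2.16 (SE 0.11, adjusted p = 1.41e-19) for *Acta2*. Exons of *Tagln* overlap those of *Pcsk7* and Gm48529 on the opposite strand over 985 of 1624 bases, so its counts are uncertain.

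*Cnn1* was the least abundant of the contractile genes, at 4.41, 6.0 and 7.53 CPM in UNT, 8.39, 12.4 and 21.9 CPM in PBS and 8.08, 13.6 and 15.8 CPM in RGLS4326 kidneys. PBS 2 held the highest value of *Cnn1* and PBS 1 that of *Acta2* and *Tagln*, and both were among the 5 libraries with adrenal transcripts. *Cnn1* rose by 1.2 on the log2 scale (SE 0.14, adjusted p = 7.82e-10) in PBS vs UNT, and by 1.0 without those libraries (adjusted p = 4.88e-08).

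*Myh11* was at 58.4, 86.5 and 110 CPM in UNT, 31.8, 68.6 and 81.5 CPM in PBS and 61.2, 81.4 and 91.7 CPM in RGLS4326 kidneys. The groups overlapped, PBS 9 and PBS 10 being the only kidneys under 50 CPM, at 31.8 and 38.1 CPM. *Myh11* fell by 0.48 on the log2 scale (SE 0.12, adjusted p = 0.000621) in PBS vs UNT, with all 11 PBS kidneys below the UNT mean. It was not called in set 1 alone (-0.21, adjusted p = 0.149), in set 3 alone (-0.51, adjusted p = 0.0993) or with a covariate for reads assigned to no gene (-0.32, adjusted p = 0.121). Without the 5 libraries with adrenal transcripts it was -0.55 (adjusted p = 0.000638).

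None of the contractile genes was called in RGLS4326 vs PBS. The log2 fold change was 0.02 (95% interval -0.19 to 0.24) for *Acta2*, -0.11 (-0.29 to 0.08) for *Tagln* and -0.07 (-0.36 to 0.21) for *Cnn1*, with adjusted p of 0.871, 0.361 and 0.705. Without the 5 libraries with adrenal transcripts the values were 0.16 for *Acta2*, -0.038 for *Tagln* and 0.11 for *Cnn1*, whose sign changed, with adjusted p of 0.259, 0.787 and 0.588. For *Myh11* it was 0.30 (95% interval 0.05 to 0.55, adjusted p = 0.0592), with 9 of 11 RGLS4326 kidneys above the PBS mean. This value lay close to the threshold and was past it with DESeq2 (adjusted p = 0.0482), with numbering set as a covariate (adjusted p = 0.035) and when PBS 1, PBS 8, RGLS4326 4, RGLS4326 8 or UNT 10 was left out, the smallest adjusted p among these 5 being 0.0371.

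Ratios to *Myh11* within a kidney gave the size of the division. For *Acta2* to *Myh11*, UNT kidneys had a log2 ratio of 0.02 ± 0.18 (SD, n = 12), PBS kidneys of 2.66 ± 0.34 (n = 11) and RGLS4326 kidneys of 2.38 ± 0.21 (n = 11). The difference between PBS and UNT was 2.65 for *Acta2*, 3.07 for *Tagln* and 1.68 for *Cnn1*, each with a permutation p of 2e-05, the smallest that these permutations can give. Every *Pkd2*-KO kidney lay above every UNT kidney in all 3 ratios. Between RGLS4326 and PBS the ratios were lower by -0.29 for *Acta2* (permutation test, adjusted p = 0.027), -0.44 for *Tagln* (adjusted p = 0.00669) and -0.38 for *Cnn1* (adjusted p = 0.00759). These differences were negative within each of the 3 numbering sets. Without the 5 libraries with adrenal transcripts that of *Acta2* was -0.25 and did not pass (permutation test, adjusted p = 0.121), while those of *Tagln* (adjusted p = 0.0396) and *Cnn1* (adjusted p = 0.0498) did. The 3 ratios share *Myh11* and are not independent of each other, and no contractile gene was itself called in RGLS4326 vs PBS. *Myh11* had the largest log2 fold change among them there (0.30), and its lowest kidneys were PBS 9 and PBS 10, at 31.8 and 38.1 CPM. Per kilobase of exon, *Myh11* made up 13.7% ± 1.58 of the summed contractile level in UNT kidneys, 2.20% ± 0.52 in PBS kidneys and 2.79% ± 0.42 in RGLS4326 kidneys.

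**Figure D3:**
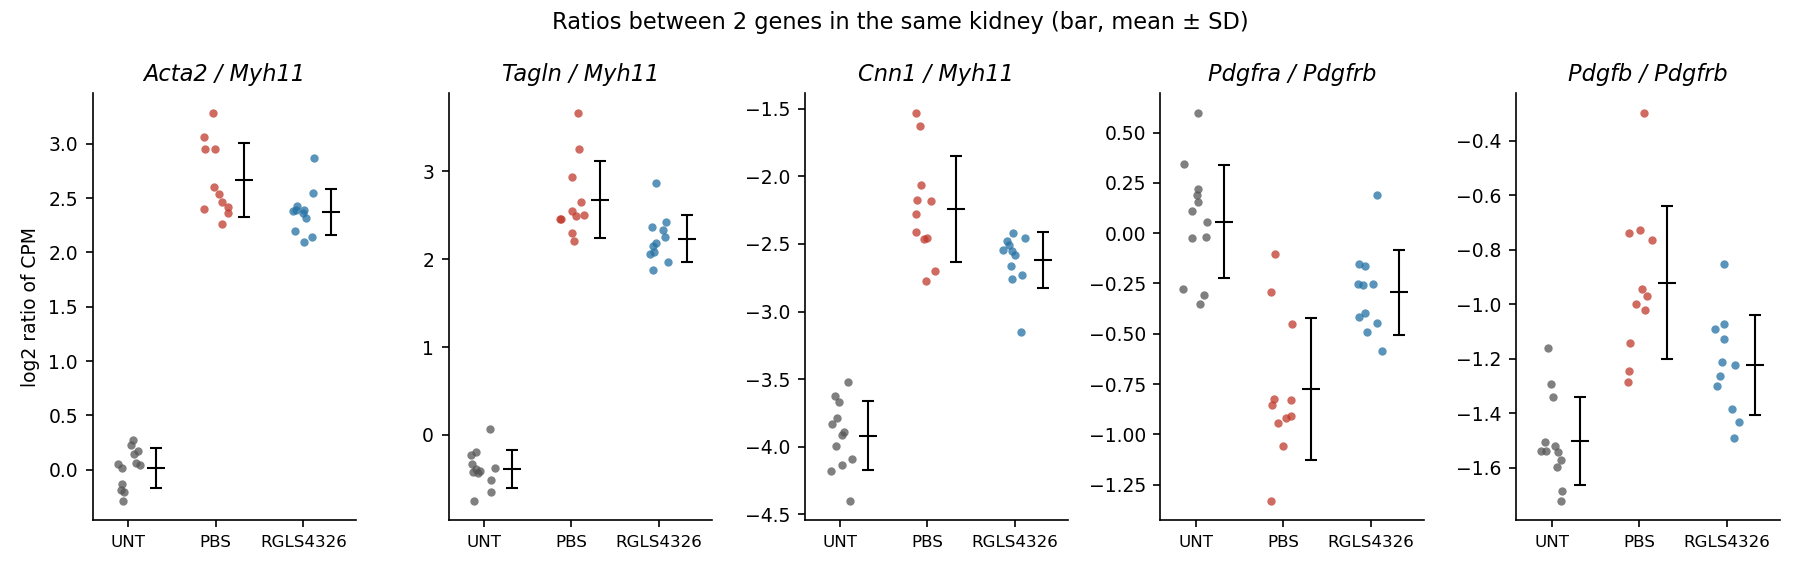
Log2 ratio of the CPM of 2 genes in the same kidney (y axis) for UNT (n = 12), PBS (n = 11) and RGLS4326 (n = 11) mice. Points are mice and bars are the mean ± SD; the 3 ratios to *Myh11* do not overlap between UNT and *Pkd2*-KO kidneys, and *Pdgfra* / *Pdgfrb* was 0.06 in UNT, -0.77 in PBS and -0.29 in RGLS4326 kidneys on average.

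Compared per kilobase of exon, the order of the mean levels in UNT kidneys was *Tagln* (41.9 ± 6.57 CPM per kb, SD, n = 12), *Acta2* (41.0 ± 7.06), *Pdgfrb* (17.5 ± 3.07), *Myh11* (13.5 ± 2.50), *Pdgfb* (11.0 ± 1.54), *Pdgfra* (10.4 ± 1.06), *Pdgfc* (7.84 ± 0.88), *Pdgfa* (5.45 ± 0.78), *Pdgfd* (2.45 ± 0.72) and *Cnn1* (2.24 ± 0.43). *Tagln* and *Acta2*, *Pdgfb* and *Pdgfra*, and *Pdgfd* and *Cnn1* were neighbours whose means differed by less than their SD. In PBS kidneys the order began with *Tagln* (247 ± 39.0) and *Acta2* (184 ± 45.3), followed by *Pdgfrb* (37.7 ± 6.95) and *Pdgfb* (35.5 ± 6.24), while *Myh11* (9.74 ± 2.47) came below *Pdgfra* (12.9 ± 3.26) and *Pdgfa* (10.1 ± 1.28). Here too the means of *Pdgfrb* and *Pdgfb*, and those of *Pdgfa* and *Myh11*, differed by less than their SD. In RGLS4326 kidneys *Pdgfra* was at 18.6 ± 3.53 and *Myh11* at 12.0 ± 1.51 CPM per kb.

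Other genes of the pathway were taken from lists, whose counts are to be read beside the shares of all tested genes, 43.1% higher and 39.0% lower in PBS vs UNT and 15.3% higher and 18.5% lower in RGLS4326 vs PBS. Of 7 genes for processing and binding of PDGF, 5 were higher and 1 was lower in PBS vs UNT, and 1 was higher and 1 lower in RGLS4326 vs PBS. *Sparc*, a matrix protein that binds PDGF-B, rose by 1.94 on the log2 scale in disease (adjusted p = 9.97e-19), and *Plat*, the protease that activates PDGF-C, was lower by -0.24 (adjusted p = 0.0134). With treatment *Nrp1*, a co-receptor, was higher by 0.29 (adjusted p = 0.011) and *St14*, a protease that can activate PDGF-D, was lower by -0.49 (adjusted p = 0.003).

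Of 20 genes acting downstream of the receptors, 10 were higher and 8 lower in PBS vs UNT, and 6 were higher and 2 lower in RGLS4326 vs PBS. *Stat3*, a transcription factor activated by many receptors, had the smallest p among the higher genes in disease (1.57, adjusted p = 1.06e-21) and *Acp1*, a phosphatase, among the lower (-0.47, adjusted p = 1.39e-08). With treatment *Plcg1*, a phospholipase, was higher by 0.24 (adjusted p = 0.0118) and *Src*, a kinase, was lower by -0.27 (adjusted p = 0.00911). Their medians were 0.20 in disease and 0.04 with treatment, against 0.04 and 0.00 over all tested genes.

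Among 15 other contractile and cytoskeletal genes, 12 were higher and 1 lower in PBS vs UNT, with a median log2 fold change of 1.10. *Tpm1*, a tropomyosin, rose by 2.16 (adjusted p = 6.59e-25) and *Synpo2*, an actin-binding protein of muscle, fell by -0.40 (adjusted p = 0.00762). In RGLS4326 vs PBS 4 were higher and 1 lower. *Mylk*, the kinase of smooth muscle myosin light chain, was higher by 0.46 (adjusted p = 0.0024), and *Des*, the intermediate filament desmin, was lower by -0.33 (adjusted p = 0.0133). The 4 genes of SRF and its coactivators were all higher in disease, *Srf* by 0.64 (adjusted p = 2.59e-06), *Myocd* by 1.03 (adjusted p = 0.000101), *Mkl1* by 1.26 (adjusted p = 4.32e-16) and *Mkl2* by 0.62 (adjusted p = 5.81e-09). None of the 4 was called in RGLS4326 vs PBS, with log2 fold changes from -0.24 (*Srf*, adjusted p = 0.0869) to 0.43 (*Myocd*, adjusted p = 0.122).

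Markers of the cells that express these genes moved as well. All 10 fibroblast and myofibroblast markers were higher in PBS vs UNT, led by *Thy1* (4.31, adjusted p = 4.88e-24), and their summed level was 390 to 1041 CPM in UNT, 2569 to 4971 CPM in PBS and 3096 to 4679 CPM in RGLS4326 kidneys. In RGLS4326 vs PBS 2 of these 10 were lower, among them *S100a4* (-0.64, adjusted p = 0.00547). Of 10 pericyte and mesangial markers 4 were higher and 4 lower in disease, and 4 were higher and 1 lower with treatment. *Ren1*, the renin of juxtaglomerular cells, fell by -1.95 (adjusted p = 3.19e-09) in disease, *Rgs5*, a pericyte marker, was higher by 0.84 (adjusted p = 0.000934) with treatment, and *Gata3* was higher in disease (1.39, adjusted p = 8.31e-15) and lower with treatment (-0.46, adjusted p = 0.00315). The median of the 4 collecting duct markers had the same directions as *Gata3* (1.35 and -0.56). Which cells held *Gata3* was not tested.

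Markers of cells outside the stroma also differed. The 5 proximal tubule markers were all lower in PBS vs UNT (summed 8205 to 11154 CPM in UNT, 662 to 2387 CPM in PBS, 1587 to 2725 CPM in RGLS4326), and the 6 macrophage markers were all higher (90.5 to 161, 519 to 1380 and 483 to 928 CPM). Of 7 endothelial markers 2 were higher and 5 lower in disease, and 5 were higher with treatment, the summed level being 554 to 673, 400 to 575 and 520 to 647 CPM. The 5 urothelium markers were all higher in disease and all lower with treatment, at 33.3 to 53.2, 55.8 to 183 and 43.5 to 86.1 CPM. Of the remaining lists, 4 of 5 podocyte markers and 2 of 3 thick ascending limb markers were lower in disease and the remaining 1 of each was higher, while all 4 collecting duct markers and 3 of 4 adipocyte markers were higher. With treatment 4 of 5 podocyte, 4 of 5 proximal tubule and 2 of 3 thick ascending limb markers were higher, and 1 of 3 thick ascending limb, 3 of 6 macrophage, 3 of 4 collecting duct and 2 of 4 adipocyte markers were lower. Of 4 skeletal muscle markers 1 passed the filter and was higher in PBS vs UNT and lower in RGLS4326 vs PBS. Of 4 adrenal cortex markers *Star* alone passed it and had calls in the same directions, with the summed level at 32.5 to 1152 CPM in PBS 1, PBS 2 and PBS 11 and at 2.54 to 8.32 CPM in the other 8 PBS libraries. The part of these changes in the values of the 10 genes was not tested.

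Whether the differences held in each numbering set was examined because the sets split all groups. The 8 genes called higher in PBS vs UNT had positive values in all 3 sets, down to 0.03 for *Pdgfra* in set 3, and *Myh11* had negative values in all 3. *Acta2* ranged from 1.76 in set 2 to 2.61 in set 1 and *Tagln* from 2.19 to 2.89. In RGLS4326 vs PBS, *Pdgfa* (-0.41, -0.24 and -0.18 in sets 1, 2 and 3), *Pdgfb* (-0.38, -0.27 and -0.10), *Pdgfra* (0.59, 0.31 and 0.71), *Myh11* (0.10, 0.33 and 0.47) and *Tagln* (-0.23, -0.14 and -0.04) had 1 sign, whereas *Cnn1* went from -0.48 in set 1 to 0.29 in set 3. None of the 10 genes had a called interaction of set and group. In PBS vs UNT the unadjusted p of the interaction was 0.000592 for *Pdgfd*, 0.000972 for *Acta2* and 0.00152 for *Tagln*, with adjusted p of 0.179, 0.179 and 0.183. Over all 15644 genes edgeR called 0 interactions in PBS vs UNT, 0 in RGLS4326 vs PBS and 2 in RGLS4326 vs UNT, while 2858, 1126 and 2396 genes had an unadjusted p under 0.05. In fits of a single set, *Pdgfa*, *Pdgfb* and *Pdgfra* were not called in RGLS4326 vs PBS in any set, and *Myh11* was called in set 2 (0.35, adjusted p = 0.0281).

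**Figure D4:**
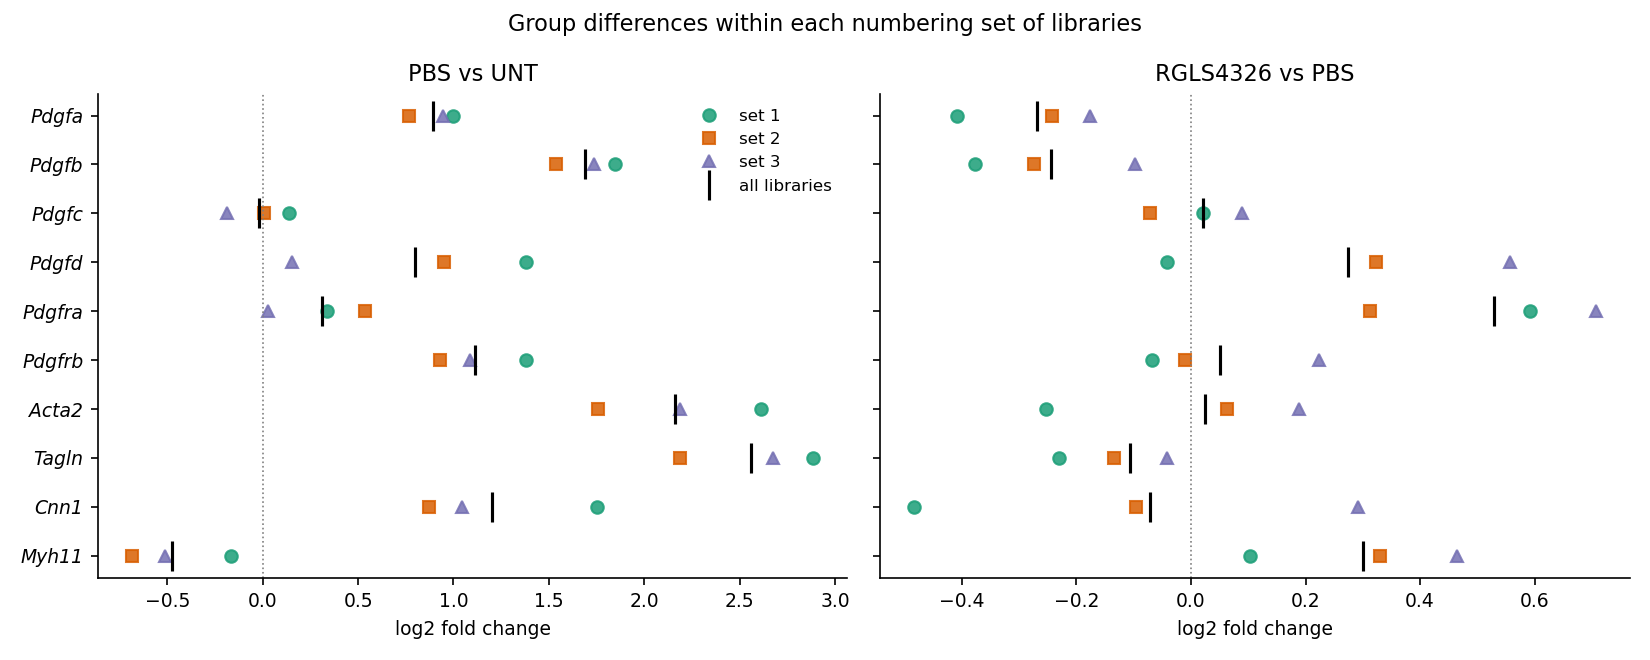
Log2 fold change (x axis) of each of the 10 genes within numbering sets 1, 2 and 3 (symbols) and over all libraries (vertical bars), for PBS vs UNT and RGLS4326 vs PBS. *Pdgfa*, *Pdgfb*, *Pdgfra*, *Tagln* and *Myh11* each lie on 1 side of 0 in all 3 sets for RGLS4326 vs PBS, while *Cnn1* runs from -0.48 to 0.29.

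Which of the genes varied together among mice of the same group was examined last, over all 34 kidneys on log2(CPM + 1) after each group's mean was subtracted, so that the differences between groups did not enter. Of 45 pairs, 25 had a Pearson correlation that passed an adjusted p of 0.05 in two-sided permutation tests within groups, 24 of them positive, and 18 of the 25 had the same sign in every numbering set. When means were subtracted within each set and group instead, 17 pairs passed. The smallest size of r among the 25 was 0.414. Of all pairs of the 15644 tested genes, 11.1% had a positive and 10.4% a negative r of at least this size, against 53.3% and 2.22% of the 45 pairs, which is given as a description since pairs share genes and kidneys. *Acta2* and *Tagln* had the highest correlation (r = 0.869, rho = 0.879, each with p = 1e-05, the smallest the permutations can give, adjusted p = 0.0001125). Without the 2 kidneys farthest from the median of *Acta2* r was 0.845, and within sets 1, 2 and 3 it was 0.80, 0.95 and 0.48. *Acta2* and *Cnn1* followed (r = 0.853, rho = 0.839, adjusted p = 0.0001125, 0.831 without the 2 farthest, and 0.55, 0.92 and 0.81 within sets).

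*Myh11* varied most closely with *Pdgfrb* (r = 0.784, rho = 0.790, permutation adjusted p = 0.0001125). This was 0.651 without the 2 kidneys farthest in *Pdgfrb* and 0.03, 0.81 and 0.77 within sets 1, 2 and 3, so it did not hold in set 1. Within groups r was 0.77 in UNT, 0.94 in PBS and 0.24 in RGLS4326 kidneys, and the difference between groups was not tested. For *Tagln* and *Myh11* r was 0.349 and did not pass (permutation p = 0.0587, adjusted p = 0.0978), while rho was 0.499 (permutation p = 0.0041, adjusted p = 0.00802). Among the ligands, *Pdgfc* correlated with *Pdgfra* (r = 0.653, rho = 0.646, permutation adjusted p = 0.0003, 0.616 without the 2 farthest, and 0.62, 0.26 and 0.78 within sets). *Pdgfa* and *Pdgfra* gave the 1 negative pair that passed (r = -0.43, rho = -0.48, permutation p = 0.00772, adjusted p = 0.0174, -0.42 without the 2 farthest, and -0.72, -0.91 and -0.41 within sets).

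By the same centred values over 34 kidneys, the genes most like *Pdgfrb* among all tested genes were *Col5a3* (r = 0.892), *Col5a1* (r = 0.879) and *Fbn1* (r = 0.868). Those most like *Myh11* were *Col6a3* (r = 0.867), *Col16a1* (r = 0.866) and *Col5a1* (r = 0.845). These genes were selected from all tested genes for their correlation, which is given as a description. In contrast to *Myh11*, *Col5a1* rose in PBS vs UNT by 1.99 on the log2 scale (adjusted p = 6.37e-15).

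**Figure D5:**
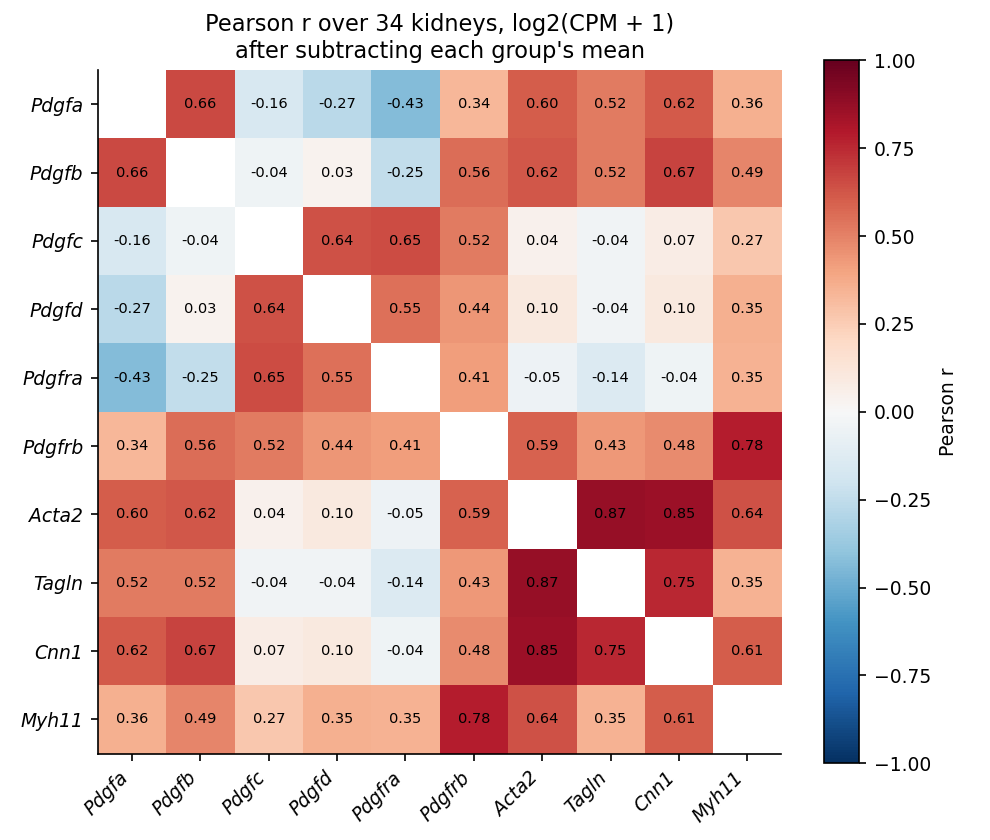
Pearson r between each pair of the 10 genes over 34 kidneys, on log2(CPM + 1) with each group's mean subtracted (colour from -1 to 1, value printed in each square). *Acta2*, *Tagln* and *Cnn1* form a block with r of 0.75 to 0.87, and *Pdgfa* and *Pdgfra* have a value of -0.43.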

How the data were processed

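Kidney mRNA of 34 mice was examined. Per the labels and the study's methods, stranded mRNA libraries were sequenced on a NextSeq instrument, trimmed with TrimGalore, mapped to GRCm38 (mm10) with STAR and counted with HTSeq 0.6.1, and the authors deposited 1 table of raw read counts per mouse, with no normalization. Which gene annotation and which strand option were used is not given in the sources used here. Replicates are libraries numbered separately within a group by the labels, so p-values measure the spread between these libraries.

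Genes were filtered with filterByExpr, scaled by TMM and tested with the two-sided quasi-likelihood test of edgeR 4.0.16 (R 4.3.3) over all 34 libraries in 3 groups. Adjusted p is the Benjamini-Hochberg value over 15644 genes, called under 0.05, and CPM is the read count scaled to library size after TMM. On simulated data for RGLS4326 vs PBS, 64 of 98 genes changed by a log2 fold change of 0.5 and 93 of 98 changed by 1 were recovered, with 8 false calls among 165 (15387 genes). The simulation drew every group from the PBS means and changed far fewer genes than the 5280 called in RGLS4326 vs PBS. These rates therefore hold for the simulated setting only. Ratios and correlations were tested by permutation with 100000 resamples (scipy 1.17.1). Alternatives were DESeq2 1.42.0, RLE scaling, no filter, 2 groups only, numbering set, replicate number or share of reads in no gene in the model, single sets and leaving out each library, plus, chosen after the values were seen, leaving out the libraries with adrenal transcripts. The 10 genes and the lists were chosen with earlier results of these data known. The 10 genes were named in full, from further lists of over 5 the gene with the smallest p in each direction, and all genes of the SRF list, and the 3 genes most correlated with *Pdgfrb* and *Myh11*. Cell type lists of other cells are given as counts and sums, without the single genes that the rule would also name.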

Additional observations from a re-analysis of the deposited data

How the results depend on the processing

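Of 330 log2 fold changes of the 10 genes in other settings, 292 kept their direction and their side of the threshold, 20 lost and 6 gained a call, and 12 changed sign. All 12 had not been called with all libraries. They were *Pdgfc* in PBS vs UNT in set 1 alone (0.10). In RGLS4326 vs PBS they were *Pdgfd* (-0.032), *Pdgfrb* (-0.058) and *Acta2* (-0.24) in set 1 alone, *Pdgfc* (-0.058) in set 2 alone, *Cnn1* in set 3 alone (0.29) and without the libraries with adrenal transcripts (0.11), and *Cnn1* (0.019) and *Tagln* (0.024) with a covariate for reads assigned to no gene. In RGLS4326 vs UNT *Pdgfc* became 0.13 in set 1 alone, 0.000711 with numbering set as a covariate and 0.00724 with the replicate block.

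With each of the 34 libraries left out in turn, 983 of 1020 values kept direction and side, 5 lost and 5 gained a call, and 27 near 0 changed sign. The ranges with a sign change were -0.042 to 0.0084 (*Pdgfc*) in PBS vs UNT, -0.017 to 0.11 (*Acta2*), -0.13 to 0.017 (*Cnn1*) and -0.000288 to 0.046 (*Pdgfc*) in RGLS4326 vs PBS, and -0.0197 to 0.0288 (*Pdgfc*) in RGLS4326 vs UNT.

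Counts of calls in PBS vs UNT and RGLS4326 vs UNT stayed within 1.5 times in all settings. In RGLS4326 vs PBS, 2388 genes were higher, 2892 lower and 3 of the 10 genes called with all libraries. These counts were 41, 13 and 0 in set 1 alone, 2164, 1901 and 1 in set 2 alone, and 0, 0 and 0 in set 3 alone. They were 56, 33 and 0 with a covariate for reads assigned to no gene, and 1440, 1829 and 1 without the libraries with adrenal transcripts. The edgeR fit of set 3 had 2826 genes at an unadjusted p under 0.05. Single sets hold 3 or 4 mice per group, and the cause of the losses was not tested in any setting.

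Equal replicate numbers did not pair the libraries: same-numbered libraries correlated over 0.1 in 2, 3 and 5 of 11 pairs. With the replicate block *Myh11* in RGLS4326 vs PBS was 0.33 (adjusted p = 0.0462) and 4 of the 10 genes were called, beside 2275 higher and 2823 lower of 15644 genes.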
